A study of Sus scrofa with 6 samples.

Results

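Interferon signalling and response genes were followed in lymph node, spleen and thymus of pigs. The genes were taken by name from the gene tables: every symbol of the families IRF, STAT, JAK, IFI, IFN, OAS, MX, ISG, GBP and USP18, with BST2, CXCL9 and CXCL11 added. This gave 71 of the 4122 listed genes. MXD3, a partner of MAX, and STATH, which encodes statherin, share a prefix and were left out, because neither is an interferon gene. The study compared pigs with a biallelic knockout of RAG2 with their wild-type littermates, all 3 months old, and per its title the edit removes a single amino acid and leaves the pigs immunodeficient. RAG2 is a subunit of the recombinase that assembles antigen receptor genes, so animals without it lack mature T and B cells. There was 1 library for each tissue and genotype, 6 in all, and how many animals gave them is not given in the sources used here. No difference within a tissue therefore has a replicate check, and no p-value is given.

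Interferons are secreted signals that put cells into an antiviral state. Type I interferons such as IFN-alpha and IFN-beta act through the receptor chains IFNAR1 and IFNAR2, and interferon gamma acts through a receptor that includes IFNGR1. JAK kinases bound to these receptors phosphorylate STAT proteins, which enter the nucleus and, with IRF factors, switch on response genes. These include enzymes that sense or degrade viral RNA, GTPases that trap viruses and intracellular bacteria, and chemokines that call T cells. In lymphoid organs the interferons come mainly from plasmacytoid dendritic cells, macrophages, natural killer cells and T cells.

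Levels are in FPKM, which scales fragments by transcript length and by depth. A gene was measured in a tissue where at least 1 of its 2 libraries reached 1 FPKM. Adding 1 FPKM to each level, a gene counts as called when knockout and wild type differ by at least 1 on the log2 scale, in either direction. On this scale the change of genes low in FPKM is understated. A gene with many FPKM per fragment can still be called on few fragments. Each fold divides the scaled fragments of knockout by those of wild type, and its 95% interval (Clopper-Pearson) reflects counting error alone. Fragments on the listed genes numbered 1922563 to 2541724 per library. Antigen receptor recombination genes marked the thymus, with 66254 fragments of RAG-1 in the knockout and 31145 in the wild-type thymus, against 1 to 91 in the other 4 libraries. RAG2 itself had 4731 fragments in the knockout and 2609 in the wild-type thymus. Such transcript levels are no check of the genotype labels, since an edited gene can still be transcribed.

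Of the 71 genes, 34 were above 0 in at least 1 library, and 31 of these reached 10 fragments in at least 1. The other 37 were listed at 0 in all 6 libraries. They include 32 of the 34 interferon genes, among them the 11 numbered IFN-DELTA genes, IFNA1 and IFNB1. They also include IFNAR1, IFNAR2, the signalling factor STAT2, the ubiquitin-like modifier ISG15 and the membrane protein IFITM3. In all, 768 of the 4122 listed genes were at 0 in every library, among them 2 of 46 ribosomal protein genes, which every cell uses. For these genes it can only be said that they are listed at 0.

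More members were called in spleen than in lymph node or thymus. Of 29 measured members 16 were higher in the knockout spleen and 0 were lower, while over all 2849 measured genes 8.88% were higher and 10% lower. Their median log2 ratio was 1.24, against -0.0159 over all measured genes. In lymph node 9 of 31 measured members were higher and 2 lower (all genes 15.3% and 10.3%), with a median of 0.27. In thymus 8 of 31 were higher and 4 lower (all genes 15.2% and 10.9%), and the median was 0.00672. No member of the spleen count was measured through 1 library only. In lymph node CXCL11 and IFITM2 were measured through the knockout library only. In thymus BST2 was measured through the knockout library only, and IFNG and IRF4 through the wild-type library only, so these 5 values had to differ. With at least 10 fragments in 1 library the counts were 16 higher and 0 lower of 29 in spleen, 6 and 1 of 25 in lymph node, and 6 and 2 of 26 in thymus. Over all genes that rule called 8.31% higher and 8.61% lower in spleen, 13.8% and 9.52% in lymph node, and 14.5% and 8.62% in thymus. With a counting interval that excludes equal levels the members numbered 16 higher and 0 lower in spleen (all genes 7.51% and 8.42%), 6 and 1 in lymph node (13.1% and 8.87%), and 5 and 2 in thymus (13.5% and 8.53%).

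**Figure D1:**
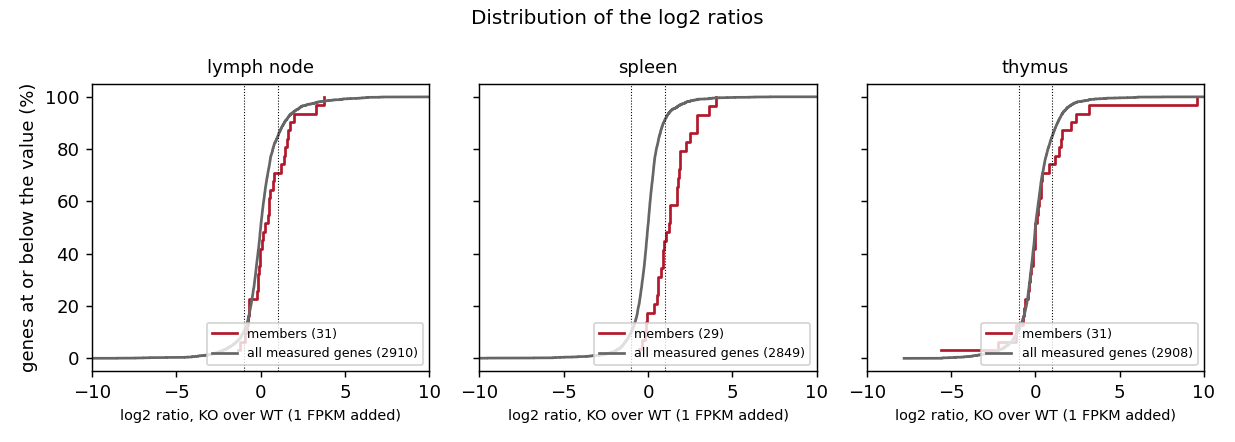
Cumulative share of genes (vertical axis, %) at or below each log2 ratio of knockout over wild type (horizontal axis, 1 FPKM added), for measured members and for all measured genes in each tissue, with dotted lines at -1 and 1. In spleen the members' curve lies right of the curve of all genes (medians 1.24 and -0.0159), and in thymus the curves lie close together around 0.

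Among the interferons themselves IFNG and IFNE were the ones above 0. IFNG, the interferon gamma of T cells and natural killer cells, stood at 6.29 FPKM in the knockout and 1.24 FPKM in the wild-type spleen. These levels rest on 12 fragments in the knockout and 2 in wild type, a 5.14-fold difference with an interval of 1.14 to 47.3. In lymph node it had 4 fragments in each library, and in thymus 0 in the knockout and 2 in wild type. Transcripts of interferon gamma were thus scarce in every library. IFNE, an interferon of epithelia, had 0 fragments in the knockout and 1 in the wild-type library of both lymph node and spleen. IFNGR1, the ligand-binding chain of the interferon gamma receptor, was abundant and stayed under the size for a call. It stood at 253 FPKM in the knockout and 234 FPKM in the wild-type lymph node, at 253 and 264 FPKM in knockout and wild-type spleen, and at 80.2 and 82.6 FPKM in knockout and wild-type thymus. Its folds ranged from 0.961 to 1.09.

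JAK1 and JAK2 are the kinases of the interferon gamma receptor, and JAK1 also serves the type I receptor. JAK1 was called higher in spleen, at 127 FPKM in the knockout and 26.3 FPKM in wild type, on 13 fragments in the knockout and 2 in wild type (5.57-fold, 1.26 to 50.8). In lymph node and thymus it had 2 to 4 fragments per library. In spleen 1 fragment of JAK1 was worth 9.75 FPKM in the knockout and 13.1 FPKM in wild type. For JAK2 it was worth 0.249 and 0.293 FPKM in knockout and wild-type spleen. The level of JAK1 therefore says little beside that of other genes. JAK2 shows a disagreement between the deposited tables. In thymus it stood at 575 FPKM in the knockout and 62.6 FPKM in wild type, a log2 ratio of 3.18. Its fragments were nearly level there, 685 in the knockout and 615 in wild type, which is 1.09-fold with an interval of 0.974 to 1.21. That call comes from FPKM and not from fragments, since the same scaled fragment was worth 8.45 times as much in the knockout library. No other member had such a gap above 1.5 times between the libraries of a tissue. In lymph node and spleen JAK2 was under the size for a call, at 38.8 and 41.3 FPKM in the knockout, against 65.7 and 60.3 FPKM in wild type.

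STAT3, a transducer of interleukin-6 type cytokines, stood at 386 FPKM in the knockout and 252 FPKM in the wild-type spleen (1.54-fold, 1.45 to 1.64) and was not called in any tissue. STAT5A and STAT5B, which serve interleukin-2 and interleukin-7 receptors, were not called either, with log2 ratios from -0.0693 to 0.87. Their spans overlap in the annotation, so their separate values are uncertain where the counting could split fragments between them. STAT6, a transducer of interleukin-4, stayed below 1 FPKM in every library, with 1 to 5 fragments.

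STAT4 was called lower in lymph node and thymus. It transmits interleukin-12 and type I interferon signals in T cells and natural killer cells and lies on chromosome 15 (95656206 to 95764099 in Sscrofa11.1). It stood at 17.6 FPKM in the knockout and 46.4 FPKM in the wild-type lymph node, 2.63-fold lower (2.14 to 3.26). In thymus it stood at 2.02 FPKM in the knockout and 13.0 FPKM in wild type, 6.42-fold lower (3.70 to 11.9). In spleen it was not called, at 17.5 FPKM in the knockout and 23.0 FPKM in wild type. T-cell markers moved in the same libraries: 7 of 7 were lower in lymph node, 5 of 7 in thymus and 3 of 7 in spleen. Their summed level was 149 FPKM in the knockout and 1469 FPKM in the wild-type lymph node, 3237 and 6408 FPKM in knockout and wild-type thymus, and 275 and 555 FPKM in knockout and wild-type spleen. Of the natural killer and cytotoxic markers 3 of 6 were higher and 0 lower in lymph node (sum 649 FPKM in the knockout and 181 FPKM in wild type), and 4 of 6 were higher and 0 lower in thymus (sum 209.7 FPKM in the knockout and 80.4 FPKM in wild type). The part of either cell type in the STAT4 values was not tested, and in such bulk tissue fewer cells of a type and less RNA per cell cannot be told apart.

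IRF7, the factor that amplifies type I interferon production, was 3.48-fold higher in spleen (2.88 to 4.22), at 104 FPKM in the knockout and 30.1 FPKM in wild type. It stood at 27.3 and 30.5 FPKM in knockout and wild-type lymph node, and at 13.7 and 19.1 FPKM in knockout and wild-type thymus. The knockout spleen stood above the other libraries, which lay between 13.7 and 30.5 FPKM. IRF1, which interferon gamma induces, and IRF3, which acts below viral sensors, were not called in any tissue. IRF1 reached 304 FPKM in the knockout and 210 FPKM in the wild-type spleen (1.45-fold, 1.35 to 1.56). IRF3 stood at 77.5 FPKM in the knockout and 118 FPKM in the wild-type thymus (log2 ratio -0.60). IRF4, a factor of activated lymphocytes and plasma cells, was called lower in lymph node and thymus on 0 to 2 fragments, so no fold is given.

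**Figure D2:**
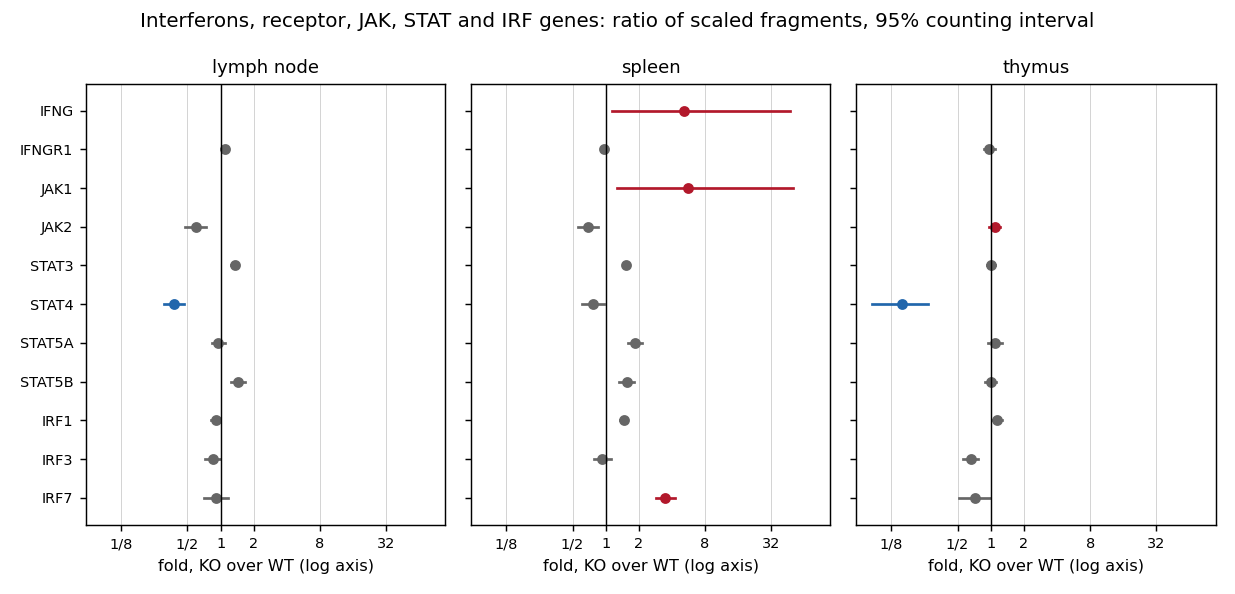
Ratio of scaled fragments, knockout over wild type (horizontal axis, log scale), for IFNG, IFNGR1 and JAK, STAT and IRF genes in each tissue; points are ratios, lines 95% counting intervals, red and blue mark genes called higher and lower by FPKM, and genes with fewer than 10 fragments in both libraries of a tissue or with 0 in 1 are not drawn. STAT4 lies left of 1 in lymph node and thymus, IRF7 lies right of 1 in spleen at 3.48, and JAK2 in thymus is red at a ratio of 1.09.

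Response genes carried most of the calls. Of 20 listed, 17 were measured in each tissue. In spleen 13 were higher and 0 lower (median log2 ratio 1.69), in lymph node 9 were higher and 0 lower (median 1.19), and in thymus 6 were higher and 1 lower (median 0.33). With at least 10 fragments these counts became 13 of 17, 6 of 14 and 4 of 15 higher, with 1 lower in thymus. The medians were then 1.69 in spleen, 0.73 in lymph node and 0.11 in thymus, so the lymph node median fell under the size for a call. The all-gene shares given above are their background.

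CXCL9 and CXCL11 encode chemokines that interferon gamma induces and that draw activated T cells through the receptor CXCR3. Both lie on chromosome 8, CXCL9 at 71665541 to 71670236 and CXCL11 at 71713790 to 71725669. CXCL9 stood at 694 FPKM in the knockout and 55.9 FPKM in the wild-type spleen, a 12.8-fold difference (9.49 to 17.8). It stood at 158 and 147 FPKM in knockout and wild-type lymph node, and at 36.9 and 46.3 FPKM in knockout and wild-type thymus. In the wild type CXCL9 was thus higher in lymph node than in spleen, and in the knockout the spleen was higher, in tables normalised separately. CXCL11 was higher in spleen, at 58.8 FPKM in the knockout and 2.72 FPKM in wild type, but wild type rests on 1 fragment, against 27 in the knockout (23.1-fold, 3.81 to 947). It had 5 fragments in the knockout and 0 in the wild-type lymph node, and 7 in the knockout and 1 in the wild-type thymus. Those calls rest on fewer than 10 fragments. Markers of natural killer and cytotoxic cells, which secrete interferon gamma, were higher in the knockout spleen in 4 of 7 cases and lower in 1. Their summed level was 1504 FPKM in the knockout and 344 FPKM in the wild-type spleen, with NCR1 listed at 0 in every library. Of this sum NKL alone gave 909 FPKM in the knockout and 87.5 FPKM in wild type. The other higher ones were NKG7, GZMB and CCL5, while GZMK was lower and GZMA and KLRK1 were not called. The part of these cells in the chemokine values was not tested.

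OAS1 was called higher in all 3 tissues, each time on at least 10 fragments in 1 library. The OAS enzymes make a short RNA messenger that activates the RNA-degrading RNase L. OAS1 (chromosome 14, 38851083 to 38867427) stood at 79.5 FPKM in the knockout and 19.8 FPKM in the wild-type lymph node (4.05-fold, 2.94 to 5.66). It stood at 62.7 and 7.64 FPKM in knockout and wild-type spleen (8.29-fold, 5.16 to 14.1), and at 20.4 and 3.93 FPKM in knockout and wild-type thymus (5.17-fold, 2.60 to 11.4). The wild-type thymus rests on 10 fragments. All 3 knockout libraries lay above all 3 wild-type libraries, though the knockout thymus and the wild-type lymph node are nearly level and come from tables normalised separately. OAS2, the adjacent gene (38827667 to 38847697), did not follow it in every tissue. OAS2 was 3.82-fold higher in spleen (3.08 to 4.79), at 344 FPKM in the knockout and 92.1 FPKM in wild type. It stood at 87.9 and 72.9 FPKM in knockout and wild-type lymph node, and at 25.4 and 41.8 FPKM in knockout and wild-type thymus. Levels of OAS2 cannot be set across tissues, because 1 fragment was worth 0.762 FPKM in the knockout and 0.912 FPKM in the wild-type spleen, and 0.119 to 0.128 FPKM in the other libraries. OASL, a relative without this enzyme activity in humans, was measured in thymus alone, at 5.87 FPKM in the knockout and 2.86 FPKM in wild type (21 fragments in the knockout and 10 in wild type, not called).

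MX1 and MX2, GTPases that block viral particles, are neighbours on chromosome 13 (MX2 204798633 to 204821612, MX1 204843049 to 204868927) and parted in the thymus. MX1 was 2.27-fold lower there (2.02 to 2.55), at 56.6 FPKM in the knockout and 128 FPKM in wild type. MX2 was 2.94-fold higher in the same libraries (2.32 to 3.75), at 48.6 FPKM in the knockout and 16.5 FPKM in wild type. In spleen MX1 was 3.66-fold higher (3.33 to 4.04), at 271 FPKM in the knockout and 74.4 FPKM in wild type. MX1 was therefore called in opposite directions in spleen and thymus. MX2 stood at 240 FPKM in the knockout and 131 FPKM in the wild-type spleen, 1.85-fold (1.69 to 2.02) and under the size for a call. In lymph node MX2 was 2.72-fold higher (2.32 to 3.19), at 105 FPKM in the knockout and 38.9 FPKM in wild type. MX1 was not called there, at 94.97 FPKM in the knockout and 57.6 FPKM in wild type.

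IFIT1 and IFIT3, RNA-binding proteins that stop translation of viral messengers, were both higher in the knockout thymus. IFIT1 (chromosome 14, 101237403 to 101249486) stood at 78.4 FPKM in the knockout and 26.0 FPKM in wild type there (3.01-fold, 2.50 to 3.64). In lymph node it stood at 124 FPKM in the knockout and 37.3 FPKM in wild type (3.34-fold, 2.86 to 3.92). In spleen it stood at 155 FPKM in the knockout and 91.0 FPKM in wild type (1.71-fold, 1.54 to 1.90), under the size for a call. IFIT1 thus had its smallest ratio in the organ where the most members were called. IFIT3 was 2.33-fold higher in thymus (1.71 to 3.20), at 33.8 FPKM in the knockout and 14.5 FPKM in wild type, and 2.14-fold higher in spleen (1.89 to 2.43), at 183 FPKM in the knockout and 85.9 FPKM in wild type. In lymph node it stood at 56.3 FPKM in the knockout and 38.1 FPKM in wild type and was not called.

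GBP1 and GBP2 encode guanylate-binding proteins, GTPases that attack vacuoles of intracellular microbes and that interferon gamma induces. They lie side by side on chromosome 4 (GBP2 127387222 to 127408729, GBP1 127425699 to 127442132). GBP1 stood at 467 FPKM in the knockout and 155 FPKM in the wild-type lymph node (3.03-fold, 2.84 to 3.23). It reached 940 FPKM in the knockout and 290 FPKM in the wild-type spleen (3.25-fold, 3.11 to 3.39995), on 9238 fragments in the knockout and 2434 in wild type. In both tissues the knockout library was the higher one by about the same fold. GBP2 was 2.94-fold higher in lymph node (2.55 to 3.41), at 125 FPKM in the knockout and 42.7 FPKM in wild type, and 2.41-fold higher in spleen (2.07 to 2.81), at 91.0 FPKM in the knockout and 37.9 FPKM in wild type. Neither was called in thymus, where GBP1 stood at 178 FPKM in the knockout and 136 FPKM in wild type and GBP2 at 73.8 FPKM in the knockout and 58.5 FPKM in wild type.

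USP18, the protease that removes ISG15 from proteins and dampens type I receptor signalling, was 6.33-fold higher in spleen (4.39 to 9.41). It stood at 46.9 FPKM in the knockout and 7.45 FPKM in the wild-type spleen, at 23.4 and 13.4 FPKM in knockout and wild-type lymph node, and at 37.3 and 41.7 FPKM in knockout and wild-type thymus. The wild-type spleen was the lowest of the 6 libraries. ISG12(A), the pig gene listed under an older name of an interferon-induced protein family, stood at 655 FPKM in the knockout and 260 FPKM in the wild-type spleen (2.56-fold, 2.29 to 2.85). In lymph node it stood at 258 FPKM in the knockout and 99.8 FPKM in wild type (2.61-fold, 2.19 to 3.14). It was level in thymus, at 121 FPKM in the knockout and 112 FPKM in wild type (1.08-fold, 0.887 to 1.32). IFI44, an interferon-induced protein, was called in spleen alone, at 107 FPKM in the knockout and 42.2 FPKM in wild type (2.55-fold, 2.10 to 3.11).

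BST2, or tetherin, holds budding viruses at the cell surface. It was called higher in all 3 tissues, but its fragments were few: 32 in the knockout and 3 in the wild-type spleen (9.13-fold, 2.86 to 46.6), 9 and 3 in knockout and wild-type lymph node, and 2 and 0 in thymus. Its FPKM of 9351 in the knockout and 1228 in the wild-type spleen come from 292 FPKM per fragment in the knockout and 409 in wild type. GBP1 had 0.102 FPKM per fragment in the knockout and 0.119 in the wild-type spleen, so the level of BST2 says little beside that of other genes. IFITM2, a membrane protein that blocks virus entry, had 87 fragments in the knockout and 19 in the wild-type spleen (3.92-fold, 2.37 to 6.82). It had 2 fragments in the knockout and 0 in the wild-type lymph node and was listed at 0 in both thymus libraries. Genes of the IFITM family are near-identical copies, so its counts are uncertain.

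IFIH1 and IFI30 were not called in any tissue. IFIH1, the sensor of long double-stranded RNA also called MDA5, stood at 45.4 FPKM in the knockout and 74.9 FPKM in the wild-type lymph node (log2 ratio -0.71). It stood at 63.5 and 71.0 FPKM in knockout and wild-type spleen, and at 23.4 and 39.0 FPKM in knockout and wild-type thymus (log2 ratio -0.71). In all 3 tissues the knockout library was the lower one, but in spleen the counting interval includes equal levels (0.898-fold, 0.803 to 1.004). IFI30, a lysosomal reductase of antigen-presenting cells, stood at 263 FPKM in the knockout and 511 FPKM in the wild-type lymph node. Its log2 ratio of -0.96 is just short of a call. In spleen it stood at 452 FPKM in the knockout and 348 FPKM in wild type, and in thymus at 296 FPKM in the knockout and 386 FPKM in wild type.

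**Figure D3:**
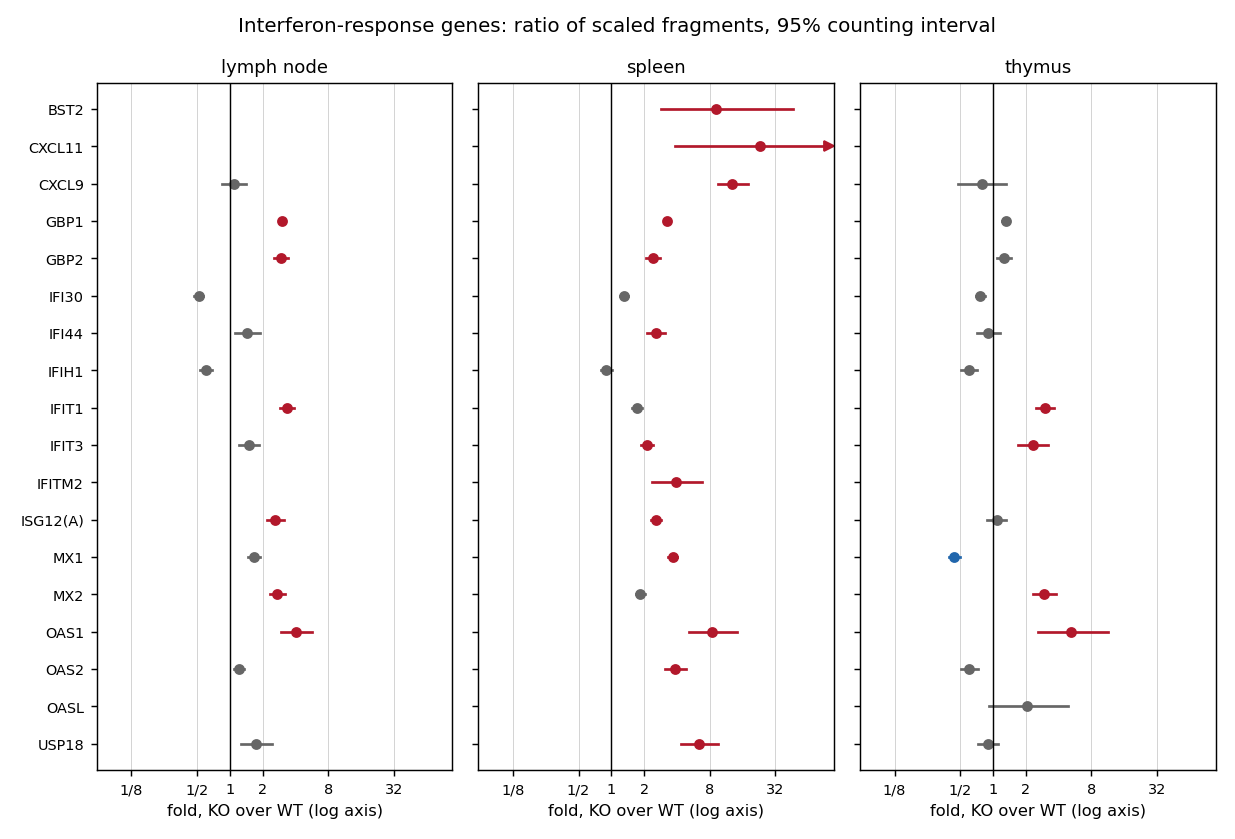
Ratio of scaled fragments, knockout over wild type (horizontal axis, log scale), for response genes in each tissue, drawn as in the plot of signalling genes; the arrow marks an interval that runs past the axis. In spleen 13 genes are red, and in thymus MX1 lies left of 1 at a ratio of 0.441 while MX2 lies right of it at 2.94.

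Of the 31 members with at least 10 fragments, 28 could be set across the libraries. For JAK2, OAS2 and IFITM2 the FPKM given to the same share of a library's fragments differed by more than 1.5 times between libraries, so they were left out of this ranking. The knockout spleen held the highest level for 18 of the 28. The wild-type lymph node was highest for 3, the knockout thymus for 2, the knockout lymph node for 2, the wild-type thymus for 2 and the wild-type spleen for 1. Among the knockout libraries alone the spleen was highest for 20 members, the lymph node for 5 and the thymus for 3. Among the wild-type libraries alone the spleen was highest for 11, the lymph node for 10 and the thymus for 7. These levels stand in tables that were normalised separately for each tissue. The same ranking over all genes is not given here, so it cannot be said whether these counts are particular to the members.

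**Figure D4:**
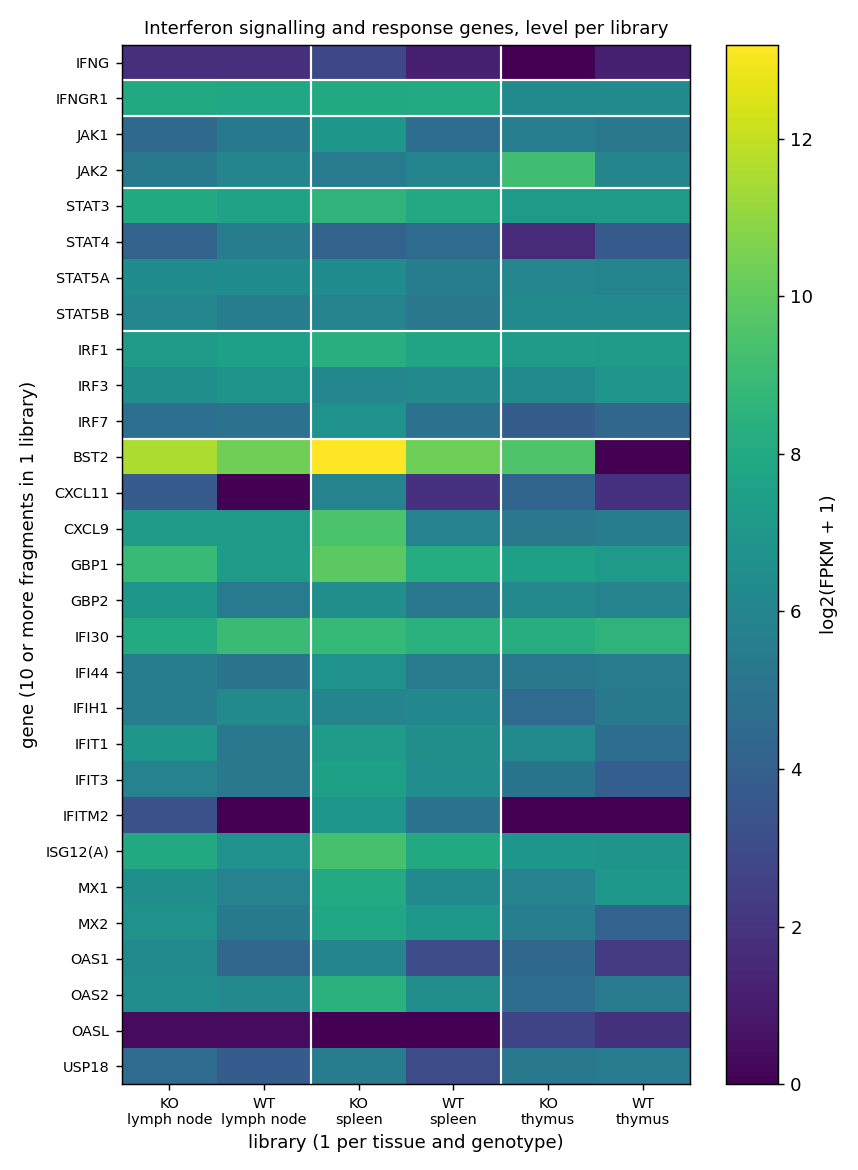
Level of 29 of the 31 members with at least 10 fragments in 1 library (rows, grouped by role and parted by white lines) in the 6 libraries (columns, 1 library per tissue and genotype); colour is log2(FPKM + 1). The knockout spleen column holds the highest value in 19 rows, but the rows of JAK2, OAS2 and IFITM2 cannot be read across tissues, and the high JAK2 value of the knockout thymus comes from FPKM and not from fragments.

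The calls were shared between tissues in part. OAS1, CXCL11 and BST2 were called higher in all 3 tissues. GBP1, GBP2, ISG12(A) and IFITM2 were called higher in spleen and lymph node and not in thymus. IFIT1 and MX2 were called higher in lymph node and thymus and not in spleen, and IFIT3 in spleen and thymus and not in lymph node. CXCL9, IFI44, IFNG, IRF7, JAK1, MX1, OAS2 and USP18 were called higher in spleen and not in the other tissues. On scaled counts in place of FPKM, the calls of BST2 in thymus and IFITM2 in lymph node were lost. Whether the ratios differ between tissues was not tested. Of the 34 members above 0, 10 were measured and called in no tissue, among them STAT3, IRF1, IRF3 and IFNGR1. The same overlaps over all genes are not given here, so it cannot be said whether this sharing is particular to the members.

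Among other genes of the pathway, more were called higher than lower in spleen. Of a list of 81 names, 32 were in the tables outside the members, and 6 of these were listed at 0 everywhere. In spleen 9 of 25 measured were higher and 1 was lower (median 0.88, all genes 8.88% and 10%). With a counting interval that excludes equal levels 7 were higher and 1 lower. CXCL10, the third ligand of CXCR3, stood at 659 FPKM in the knockout and 107 FPKM in the wild-type spleen (6.24-fold, 5.54 to 7.06). DHX58, a regulator of RNA sensing, was 4.73-fold higher (3.79 to 5.97), UBE2L6, the enzyme that attaches ISG15, 3.66-fold (2.86 to 4.73), and ZBP1, a sensor of Z-form nucleic acid, 3.14-fold (2.63 to 3.77). CD274, the checkpoint ligand PD-L1, was 3.65-fold higher (2.06 to 6.90), on 64 fragments in the knockout and 15 in wild type. RSAD2, the antiviral enzyme viperin, was 2.58-fold higher (2.10 to 3.19). The endosomal RNA sensor TLR7 was the lower one, at 29.2 FPKM in the knockout and 68.4 FPKM in the wild-type spleen (2.33-fold lower, 2.06 to 2.65).

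In lymph node 3 of 24 measured pathway genes were higher and 1 lower (all genes 15.3% and 10.3%). The death ligand TNFSF10 (2.26-fold, 2.08 to 2.45) and the RNA sensors TLR3 (2.61-fold, 2.16 to 3.17) and TLR8 (2.46-fold, 2.19 to 2.76) were higher. The DNA sensor TLR9 was 2.13-fold lower (1.62 to 2.83). In thymus 7 of 24 were higher and 2 lower (all genes 15.2% and 10.9%). TLR3 (4.61-fold, 3.57 to 6.02), TLR8 (4.71-fold, 3.84 to 5.81) and MAVS, the adaptor of cytosolic RNA sensors (3.196-fold, 2.49 to 4.13), were among the higher ones, and TNFSF10 was 2.35-fold higher (2.05 to 2.695). RSAD2 was higher in thymus too, at 10.8 FPKM in the knockout and 4.82 FPKM in wild type (2.25-fold, 1.53 to 3.34). TLR7, lower in the knockout spleen, stood at 107 FPKM in the knockout and 42.6 FPKM in the wild-type thymus (2.51-fold, 2.26 to 2.80). TLR9, lower in the knockout lymph node, stood at 8.84 FPKM in the knockout and 3.44 FPKM in the wild-type thymus (2.57-fold, 1.71 to 3.97). IDO1, a tryptophan-degrading enzyme that interferon gamma induces, had 0 fragments in the knockout and 46 in the wild-type thymus, at least 15.7-fold lower against a floor of 3 fragments per library. TMEM173, the DNA-sensing adaptor STING, was 2.198-fold lower there (1.58 to 3.08).

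Markers of other cells moved in the same libraries. In spleen 5 of 5 neutrophil markers were higher (sum 1751 FPKM in the knockout and 40.9 FPKM in wild type), and 5 of 5 B-cell markers were lower (sum 6.63 FPKM in the knockout and 540 FPKM in wild type). Macrophage markers split in spleen, with 2 of 8 higher (CD14 and VSIG4) and 2 lower (MSR1 and SIGLEC-1). CD163 was listed at 0 everywhere. Their sum was 21926 FPKM in the knockout and 28683 FPKM in the wild-type spleen. Most of it was C1QA (8154 FPKM in the knockout and 11563 FPKM in wild type) and C1QC (11959 and 14988 FPKM), neither of them called. Of the plasmacytoid dendritic cell markers 5 of 10 were in the tables, and 3 of 5 were lower in spleen (sum 64.5 FPKM in the knockout and 146 FPKM in wild type). The 5 found were TLR7, TLR9, BCL11A, CD4 and TLR10, while CLEC4C, IL3RA, TCF4, SPIB and FLT3 were not in the tables. These 5 genes are not confined to plasmacytoid dendritic cells, and TLR7 and TLR9 are also counted among the pathway genes. Their levels are therefore no measure of these cells. The lower ones in spleen were TLR7, CD4 and TLR10. Of the same list 3 of 5 were lower and 0 higher in lymph node, and 2 were higher and 2 lower in thymus. In lymph node 4 of 5 neutrophil markers were higher and 1 lower (sum 594 FPKM in the knockout and 43.2 FPKM in wild type), and 6 of 6 adipocyte markers were higher (sum 8834 FPKM in the knockout and 106 FPKM in wild type). All 5 B-cell markers were lower there (sum 4.50 FPKM in the knockout and 1585 FPKM in wild type). In thymus 6 of 8 macrophage markers were higher and 1 lower (sum 2589 FPKM in the knockout and 1029 FPKM in wild type). Neutrophil markers were higher there in 4 of 5 cases and lower in 0 (sum 2106 FPKM in the knockout and 129.5 FPKM in wild type), and adipocyte markers in 4 of 5 cases and lower in 0 (sum 1723 FPKM in the knockout and 457 FPKM in wild type). The part of these cells in the members' values was not tested.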

How the data were processed

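RNA was measured in 6 libraries, 1 per tissue and genotype. An RNeasy kit served for total RNA and a stranded TruSeq kit for the libraries, per the labels' protocols. Per the submitters' processing notes, FastQC 0.11.9, Trimmomatic 0.39, STAR 2.7.9a, Cufflinks 2.2.1 and the build Sscrofa11.1 were used. Not given in the sources used here are the order and settings of these tools, the annotation, the strand setting and how multiply mapped fragments were treated. The FPKM values were deposited by the authors in 1 table per tissue. The deposited count tables hold estimated counts, scaled by the authors with a factor for each library. Divided by the most frequent value above 0 (0.925 to 1.08), 98.6 to 99.3% of the values above 0 were whole within 0.02, and rounding then gave fragments. Only some pig genes are listed, so fragment totals are not the depth of the libraries.

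Log2 ratios use a pseudocount of 1 FPKM. The members, lists and rules were chosen with earlier results of these data known. Full values are given for the 5 marker genes, for members called on 10 or more fragments, and for the JAK, STAT, IRF, interferon and receptor genes, apart from members that are counted in the totals and not reported singly here; outside them up to 6 called pathway genes per tissue are named. IFIH1, IFI30 and OASL, TLR7 in spleen, and RSAD2, TLR9 and TMEM173 in thymus lie outside this rule and were added with their values in view. Chromosome positions come from RefSeq for Sscrofa11.1, counted from 1, and 69 of 71 symbols matched. No test across genes was made, since each group has 1 library, and genotype was not fitted over the tissues together. The calls that also need the counting interval were tested on simulated fragments with counting error alone. Variation between animals and gaps between FPKM and fragments were not simulated. Alternatives used edgeR 4.0.16 (TMM) and DESeq2 1.42.0 (size factors) for scaling, other pseudocounts, minimums and thresholds, centring and the counting interval. Python 3.11.15, numpy 2.4.6, pandas 2.3.3, scipy 1.17.1 and R 4.3.3 were used.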

Additional observations from a re-analysis of the deposited data

Results flagged for a closer look

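MX1 was called in opposite directions in 2 tissues, each on more than 10 fragments. Its log2 ratio of knockout over wild type was 1.85 in spleen and -1.17 in thymus. The difference between the tissues was not tested, since each rests on 1 library per genotype.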

How the results depend on the processing

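Of 159 counts and medians recomputed under other settings, 133 stayed within set bounds. For a count the bound was 1.5 times the reported count. For a median the bounds were the median lower end and the median upper end of the members' counting intervals. These bounds have the width of a single gene's interval and are no interval of the median. In spleen, the count of 16 higher members was 6 with a threshold of 2, that of 9 higher pathway genes 2 and that of 1 lower pathway gene 0. The spleen median became 0 without an expression minimum, which adds the genes listed at 0. In lymph node, the 2 lower members became 1 with counts scaled to their total, with TMM factors, with size factors, with a minimum of 10 fragments or with the counting interval, since IRF4 rests on few fragments. With a threshold of 2 there were 2 higher and 0 lower members and 0 higher and 0 lower pathway genes. With a pseudocount of 5 there were 0 lower pathway genes. In thymus, the 4 lower members became 2 under each count scaling, a minimum of 10 fragments, the counting interval or a threshold of 2. The 8 higher members became 5 with the counting interval and 4 with a threshold of 2. Higher pathway genes there numbered 2 with a threshold of 2, and lower ones 1 with that threshold, a pseudocount of 5 or counts scaled to their total. In thymus, counts scaled to their total moved the median of all genes by 0.116. Of 234 recomputed values of called members, 0 changed sign and 21 came under the size for a call, from 8 of the 39 called values. With counts scaled to their total, with TMM factors or with size factors, the log2 ratio in thymus became 0.12 to 0.24 for JAK2 (reported 3.18), 0.85 to 0.88 for BST2 (9.56), -0.86 to -0.84 for IFNG (-1.15) and the same for IRF4 (-5.61). Under the same scalings it became 0.992 to 0.997 for IFITM2 (3.26) and -0.45 to -0.44 for IRF4 (-1.24) in lymph node. With a pseudocount of 5 it was 0.85 for IFNG in spleen, and 0.99 for IFIT3 and -0.31 for IFNG in thymus. Of all 546 recomputed single values, 5 moved by more than the half-width of their counting interval. No paired analysis was possible because each group holds 1 library. The planned search for interferon-response motifs in promoters was not run, since no promoter sequence was used here.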

Other observations

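Over the 6 libraries, the genes whose log2(FPKM + 1) ran most like OAS1, among 2804 genes with at least 5 FPKM in 1 library, were CAPN3 (Pearson r = 0.979), PICALM (0.964), SPEF1 (0.951), EDN1 (0.946) and CDA (0.943). For CXCL9 they were C3 (0.958), CHID1 (0.955), TNIP1 (0.947), BATF (0.937) and GLUD1 (0.935). These values describe 6 libraries that share tissue and genotype, and the genes were picked as the highest of many.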
